A study of Mus musculus with 12 samples.

Results

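The genes of the proteasome were followed in mouse hearts 8 hours after myocardial infarction (MI) or sham surgery. All genes were taken whose array annotation held a single symbol made of Psm, a letter from a to g and a digit, and the probe set that was brightest on average stood for each gene. This gave 48 genes from 85 probe sets, of 12393 genes on the arrays with a single symbol, and 27 of the 48 had 1 probe set. Of these, 46 encode proteasome subunits, activators, inhibitors or assembly chaperones. The other 2 only share the start of the name. Psmc3ip encodes a partner of the recombinases of meiosis, and Psme3ip1 encodes a protein that binds the activator PA28γ. The level filter, a mean signal of 17.3 over the 12 arrays, was passed by 45 of the 46 proteasome genes and by 8109 genes in all. Psma8, the α subunit of the testis proteasome, lay below it, with signals from 2.25 to 10.9.

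Hearts of 12 C57Bl/6 mice, an inbred strain, were measured on 1 Affymetrix array each, in 4 groups of 3 mice. MI was made by tying off a main coronary artery of the left ventricle, the left anterior descending. Wake MI and wake sham mice were operated on between ZT13 and ZT15 and killed at ZT23, and sleep MI and sleep sham mice were operated on between ZT1 and ZT3 and killed at ZT11, with ZT (zeitgeber time) given in hours after lights came on. The time of surgery and the time of collection therefore changed together, and their parts cannot be told apart. The labels describe the MI samples as infarcted myocardium, do not say which part of the sham hearts was taken, and give neither sex nor age. All 4 groups had surgery, so no heart without an operation was measured.

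The 26S proteasome is the main protease for ubiquitin-tagged proteins in the cytosol and nucleus. Its 20S core is a barrel of α and β rings, and 3 of the constitutive β subunits cut proteins: Psmb6 (β1), Psmb7 (β2) and Psmb5 (β5). Interferon-γ and immune cells replace these with Psmb9 (β1i), Psmb10 (β2i) and Psmb8 (β5i), which form the immunoproteasome and favour peptides that fit MHC class I. The 19S regulatory particle recognises, unfolds and feeds in the substrate, through a base of ATPases and scaffold subunits and a lid that removes ubiquitin. Other caps (PA28, made of Psme1 and Psme2, PA28γ or Psme3, and PA200 or Psme4) open the core without ubiquitin, Psmf1 (PI31) binds it, and dedicated chaperones assemble the rings. Cardiomyocytes renew their contractile proteins partly through this system.

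The arrays had been brought to one level, with a 2% trimmed mean of 150.1 on each, and pairs of arrays of one group correlated at 0.974 to 0.988. The 3′ to 5′ ratio of the beta-actin control probe sets, which rises as RNA is degraded or copied incompletely, was 2.60 ± 0.62 (mean ± SD, n = 3) in wake MI and 1.79 ± 0.020 in wake sham hearts. It was 2.40 ± 0.45 after MI and 2.18 ± 0.28 after sham surgery in the sleep groups. It was highest in wake MI replicate 3 (3.31) and sleep MI replicate 3 (2.92), and the wake groups did not overlap in it. On wake MI replicate 3, 21 of the 45 proteasome genes had their lowest level of the 12 arrays. The same count was not made over all genes, so it may not be particular to the proteasome genes. Of 6 neutrophil markers tested, 6 rose with MI over both times, 5 in wake and 1 in sleep hearts. Of all genes, 8.57% rose over both times, 7.81% in wake hearts, and 137 of 8109 in sleep hearts. The summed signal of the neutrophil markers was 969 to 1399 in wake MI against 157 to 550 in wake sham hearts, and 1130 to 2086 in sleep MI against 328 to 914 in sleep sham hearts. The 10 cardiomyocyte markers, Myh6 and Actc1 among them, were strongly expressed in every group, with summed signals from 67864 to 92904 over the 12 arrays.

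The wake groups also differed in markers of the atrium. Myl7, the atrial myosin light chain, had signals of 3.07, 0.73 and 1.21 in wake MI and 79.3, 268 and 3476 in wake sham hearts, and 550.1, 121 and 158 in sleep MI hearts and 26.3, 11.5 and 256 in sleep sham hearts. Wake sham replicate 3 was far above all other arrays, and the other wake sham arrays were also above all wake MI arrays. Of the 4 atrial markers tested, 3 were lower in wake MI than in wake sham hearts (Myl7, Myl4 and Sln, adjusted p 0.00826, 0.0163 and 0.0248 with limma), beside 10.6% of all genes, and the median log2 difference was -3.47. The summed signal of the 4 was 998 to 1436 in wake MI, 1715 to 14687 in wake sham, 1815 to 2949 in sleep MI hearts, and 1671 to 4720 in sleep sham hearts. The part of this difference in the wake results was not tested. Without wake sham replicate 3, 5 proteasome genes were called in wake hearts (Psma4, Psmb9, Psmd10, Psme4 and Psmg2) and 5 over both times (Psmb9, Psmd10, Psme4, Psmg1 and Psmg2). Of all genes, 10.4% were then called in wake hearts and 16.7% over both times. Without wake sham replicate 1 the counts were 7 and 5, beside 10.7% and 17.3% of all genes.

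The transcript levels of most proteasome genes did not pass the test for a change 8 hours after MI, and those that did fell more often than they rose, by small amounts. Averaged over both times of day, 10 of 45 were called at an adjusted p below 0.05 (limma, Benjamini-Hochberg over 8109 genes). This was 22.2% of them, and 22.2% of all genes tested were called. Of these, 8 were lower and 2 higher, against 13.6% and 8.57% of all genes. The immunoproteasome subunits Psmb9 and Psmb8, the core subunits Psma4 and Psmb1, the lid subunit Psmd7, and the chaperones Psmg1, Psmg2 and Psmd10 were lower after MI, while the lid subunit Psmd11 and the activator Psme4 were higher. In Psmb1, Psmb9, Psmd5 and Psmg2 every MI array lay below every sham array of its time at both times, as in 7.05% of all genes. The median log2 difference of the 45 genes was -0.06, with a range from -0.42 to 0.32, and that of all genes tested was -0.06. RNA came from whole pieces of tissue, so fewer cells of a type and less RNA in each cell cannot be told apart.

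At single times of day the calls lay in the wake comparison. In wake hearts 8 of 45 genes were called, which is 17.8% against 18.4% of all genes. Psmd3 and Psme4 were higher and 6 genes lower, against 7.81% and 10.6% of all genes, and the median was -0.11 against -0.06 for all genes. Without wake MI replicate 3 these medians were -0.04 and -0.06, and with the beta-actin ratio in the fit -0.03 and -0.06. Without wake MI replicate 1 they were -0.16 and -0.06, and without wake sham replicate 3 they were -0.12 and -0.06. The wake groups did not overlap in the beta-actin ratio, so the fit with it cannot fully tell the ratio and MI apart. The 3 wake MI arrays lay all above the 3 wake sham arrays for 3 genes and all below for 12, and 13.7% and 21.5% of all genes did so. In sleep hearts 0 of 45 genes were called with limma, against 2.66% of all genes. An unadjusted p below 0.05 was found for 5 of the 45 and for 1394 of the 8109 genes. The sleep median was -0.08, against -0.05 for all genes, and 7 genes had all MI arrays below all sham arrays (15.3% of all genes). Of the 45 genes, 23 were lower after MI at both times, 5 higher at both, 10 higher in wake and lower in sleep hearts, and 7 the reverse. These signs were not counted over all genes, whose medians were also negative, at -0.06 in wake and -0.05 in sleep hearts.

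**Figure D1:**
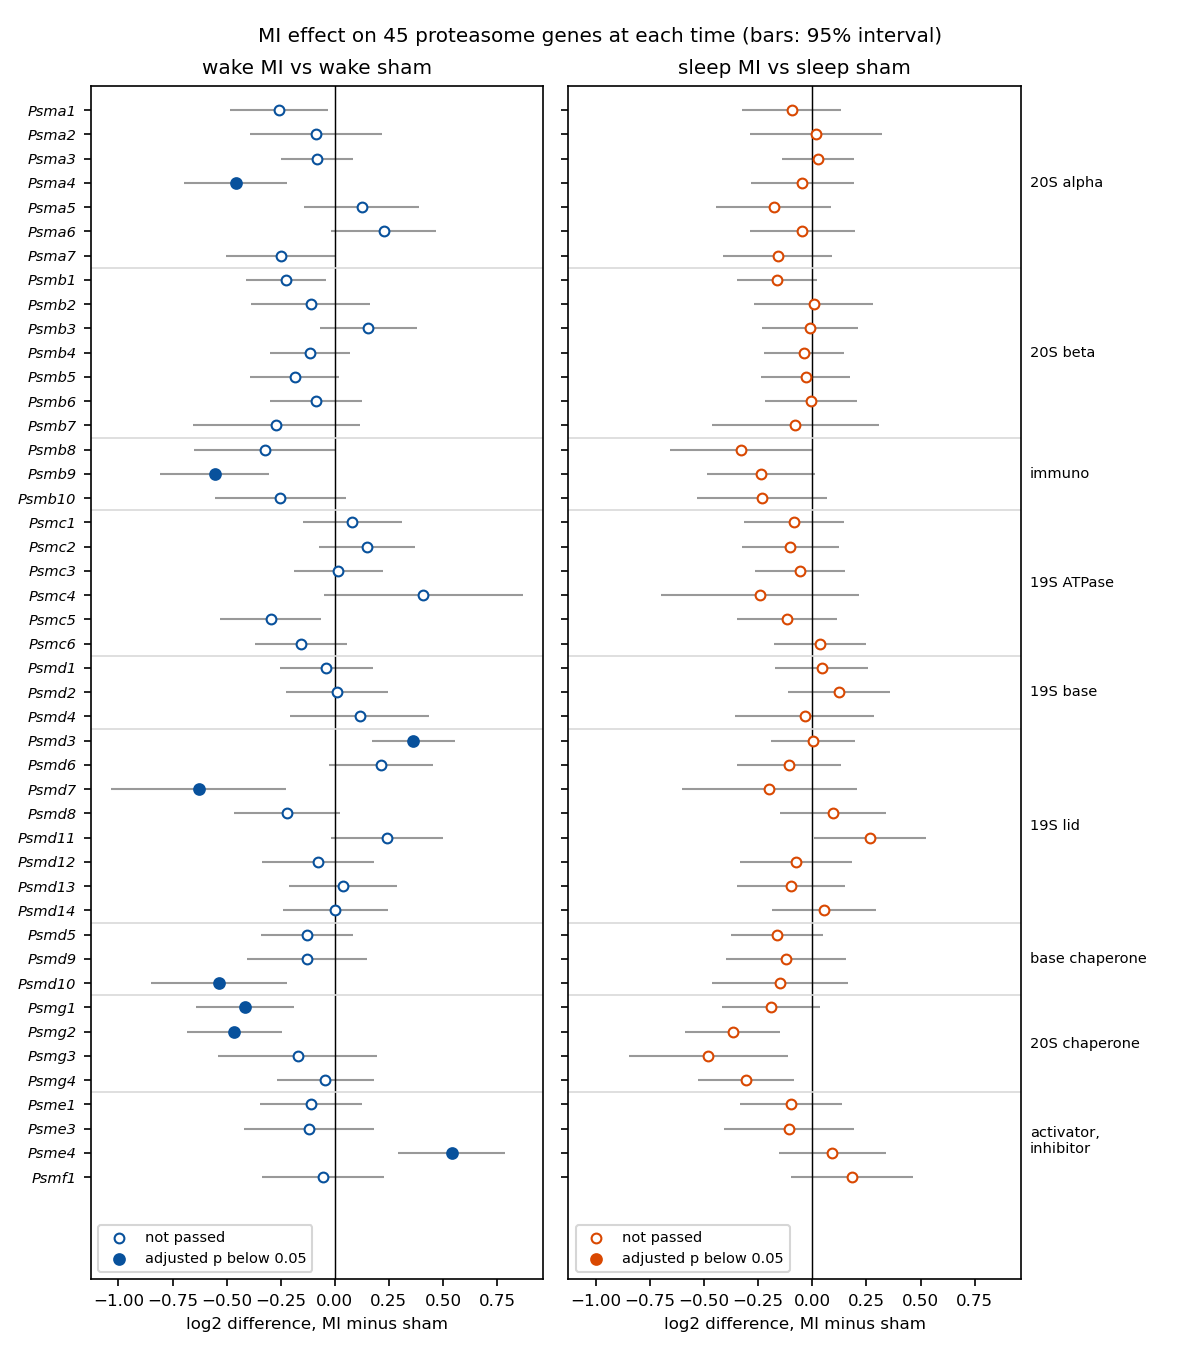
Log2 difference between MI and sham hearts for each of the 45 proteasome genes tested, in wake hearts (left) and sleep hearts (right), ordered by class, on the log2(signal + 16) scale, with 95% confidence intervals. Filled points passed the test: 8 in wake hearts (2 to the right of 0, 6 to the left) and 0 in sleep hearts.

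Whether MI acted differently in wake and in sleep hearts was tested directly, as the difference of the 2 effects, and passed for 0 of 45 genes, and for 0 of 8109 genes in all with limma (851 at an unadjusted p below 0.05). At an unadjusted p below 0.05 it was passed by 4 of the 45: Psmd3 (0.36 on the log2 scale, adjusted p 0.340), Psme4 (0.45, adjusted p 0.357), Psma4 (fell further in wake hearts, -0.41, adjusted p 0.381) and Psmc4 (0.65, adjusted p 0.474). The count over all genes rested on single arrays, at 37 without sleep sham replicate 3 and 22 without wake sham replicate 2, while 0 of the 45 proteasome genes were called without either.

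Of the 3 immunoproteasome subunits 2 were called over both times (66.7%), both lower. The constitutive core had 2 of 14 genes called (14.3%) and the 19S particle 2 of 17 (11.8%), beside 22.2% of all genes tested. All 3 were lower after MI on average, with a median log2 difference of -0.33 over both times, -0.32 in wake and -0.24 in sleep hearts. With 3 genes this share describes the class and was not tested against others. Their constitutive counterparts Psmb6, Psmb7 and Psmb5 did not pass.

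The 150 bases before the RefSeq start sites of the 3 immunoproteasome genes and of Psmb5 are shown because the immune and the constitutive catalytic subunits are known for different inducers. The coordinates are of GRCm38.p6: Psmb9 chr17:34187331-34187480 on the minus strand, Psmb8 chr17:34198045-34198194 on the plus strand, Psmb10 chr8:105938393-105938542 on the minus strand and Psmb5 chr14:54617996-54618145 on the minus strand. Each reads 5′ to 3′ toward the gene. Capitals mark matches on either strand to the antioxidant response element TGACNNNGC, the interferon-stimulated response element, the E-box CACGTG, the CCAAT box CCAAT or the heat shock element GAANNTTC.
Psmb9: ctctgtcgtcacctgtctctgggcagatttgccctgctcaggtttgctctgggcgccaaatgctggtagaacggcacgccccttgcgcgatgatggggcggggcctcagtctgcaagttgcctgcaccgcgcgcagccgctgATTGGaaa
Psmb8: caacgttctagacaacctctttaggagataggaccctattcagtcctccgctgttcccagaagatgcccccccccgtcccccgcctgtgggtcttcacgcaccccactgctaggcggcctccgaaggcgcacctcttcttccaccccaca
Psmb10: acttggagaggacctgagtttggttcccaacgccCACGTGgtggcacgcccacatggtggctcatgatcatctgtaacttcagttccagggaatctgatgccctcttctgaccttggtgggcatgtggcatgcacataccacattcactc
Psmb5: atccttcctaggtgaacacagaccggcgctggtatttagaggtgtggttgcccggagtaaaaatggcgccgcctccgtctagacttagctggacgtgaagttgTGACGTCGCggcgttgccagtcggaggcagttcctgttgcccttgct

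In these stretches Psmb5 held an antioxidant response element at bases -47 to -39 from the start site, Psmb9 a CCAAT box on the other strand at -8 to -4, Psmb10 an E-box at -116 to -111, and Psmb8 none of the 5 motifs. Over the whole RefSeq windows, 250 bases before to 50 after the start, 38 of the 46 proteasome genes had an entry. The antioxidant response element was in 6 of these 38 (15.8%) against 14.0% of 27025 genes. The interferon-stimulated element was in 5 (13.2%) against 3.99%: Psmb3, Psmd4, Psmd9, Psme1 and Psmg4. The E-box was in 4 (10.5%) against 8.09%, the CCAAT box in 13 (34.2%) against 41.1%, and the heat shock element in 3 (7.89%) against 9.04%. The Psmb9 window shared 275 bases with that of Tap1, the peptide transporter gene that starts 226 bases away on the opposite strand.

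Psmb9, the β1i subunit, had signals of 48.3, 54.5 and 67.5 on the wake MI arrays (replicates 1, 2 and 3) and 94.3, 90.2 and 86.5 on the wake sham arrays. On the sleep arrays they were 63.7, 64.7 and 62.1 after MI and 80.9, 79.3 and 73.4 after sham surgery. Every MI array lay below every sham array at both times. Psmb9 fell 1.32-fold over both times (log2 -0.40, SE 0.08, adjusted p 0.00435 with limma) and 1.47-fold in wake hearts (log2 -0.56, SE 0.12, adjusted p 0.00596). In sleep hearts the log2 difference was -0.24 (adjusted p 0.316). The difference between the 2 effects was -0.32 with a 95% interval from -0.67 to 0.04. Psmb9 kept its call over both times and in wake hearts in all 13 alternative analyses and without each of the 12 arrays.

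Psmb8, the β5i subunit, had wake signals of 72.3, 89.2 and 110 after MI and 116, 105 and 127 after sham surgery. Its sleep signals were 130, 99.2 and 101 after MI and 141, 166 and 121 after sham surgery. The groups overlapped at both times, through 1 high MI array each. Over both times Psmb8 fell 1.25-fold (log2 -0.33, SE 0.11, adjusted p 0.0449 with limma), and the wake and sleep values were alike in size (-0.32 and -0.33, adjusted p 0.158 and 0.290). This call was lost without any 1 of wake MI 1 or 2, wake sham 1 or 3, sleep MI 2 or 3 and sleep sham 1 or 2, with adjusted p from 0.0765 to 0.0985, and adjusting for the beta-actin ratio gave 0.0923. It was also lost with no level filter (0.0712), with quantile normalization, with median centring and with the replicate number as a block, and so was kept in 8 of 13 alternatives.

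Psmb10, the β2i subunit, had wake signals of 210, 206 and 292 after MI and 276, 281 and 284 after sham surgery. Its sleep signals were 273, 208 and 239 after MI and 257, 274 and 323 after sham surgery. Wake MI replicate 3 was above all 3 wake sham arrays, while the other wake MI arrays were below them. The log2 difference over both times was -0.24 (SE 0.10, adjusted p 0.0932 with limma), in wake hearts -0.25 (adjusted p 0.231) and in sleep hearts -0.23 (adjusted p 0.428). Without wake MI replicate 3 the adjusted p was 0.0184 over both times and 0.0467 in wake hearts.

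The constitutive partner of Psmb9, Psmb6 (β1), had wake signals of 1193, 1035 and 968 after MI and 1153, 1124 and 1109 after sham surgery, and sleep signals of 1075, 1040 and 1021 after MI and 1053, 961 and 1143 after sham surgery. The groups overlapped at both times, and the log2 difference over both times was -0.05 with a 95% interval from -0.20 to 0.10. Psmb5 (β5), the partner of Psmb8 and the main target of proteasome inhibitor drugs, had wake signals of 965, 910 and 803 after MI and 1081, 992 and 973 after sham surgery, and sleep signals of 853, 873 and 954 after MI and 939, 872 and 925 after sham surgery. The wake MI arrays all lay below the wake sham arrays and the sleep arrays overlapped. Its difference over both times was -0.11 with an interval from -0.25 to 0.04. Psmb7 (β2), the partner of Psmb10, had wake signals of 1118, 975 and 643 after MI and 1304, 1046 and 911 after sham surgery, and sleep signals of 1019, 1001 and 929 after MI and 1114, 882 and 1139 after sham surgery. It overlapped at both times and spread widely, with a difference of -0.17 and an interval from -0.45 to 0.10. Adjusted p over both times was 0.675, 0.276 and 0.352 for Psmb6, Psmb5 and Psmb7 with limma. The intervals over both times overlap for Psmb8 and Psmb5 and for Psmb10 and Psmb7, while that of Psmb9 lies just below that of Psmb6. A difference between the forms was not tested.

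**Figure D2:**
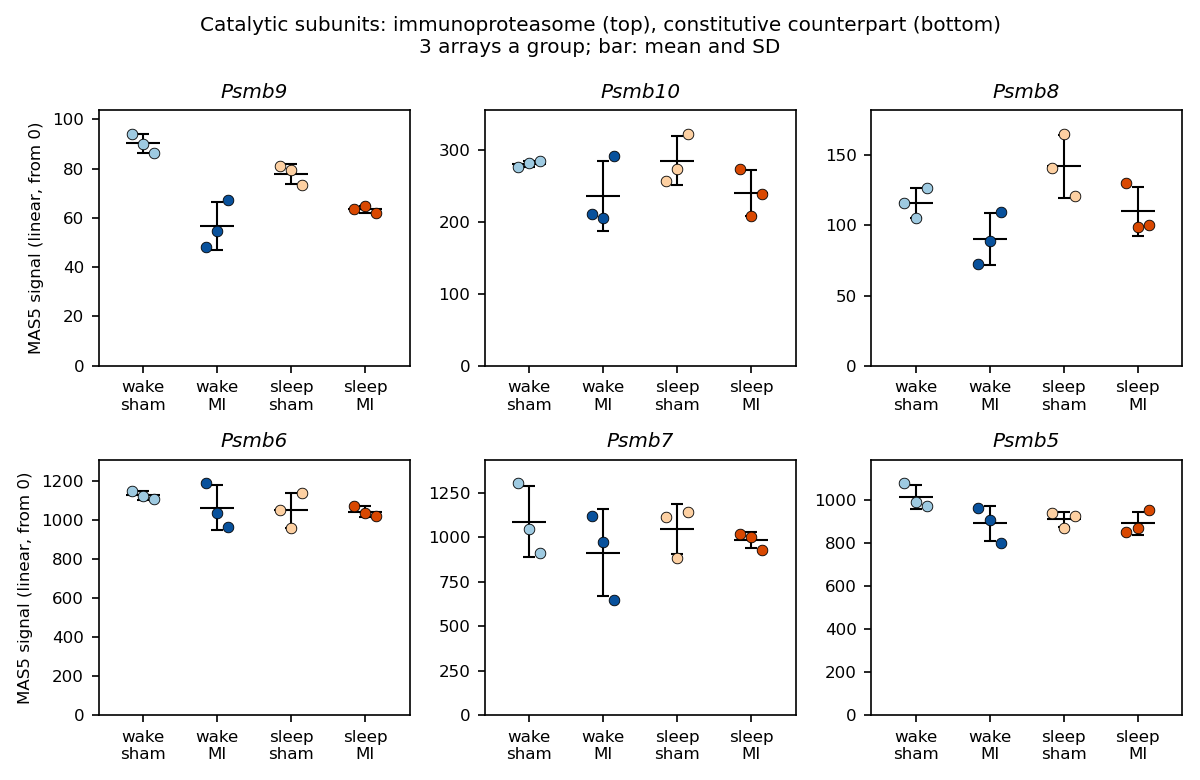
MAS5 signal on a linear axis from 0 for the 3 immunoproteasome subunits (top) and the constitutive subunit each replaces (bottom), with 1 point per array and the mean and SD of 3 arrays per group. Psmb9 is the one of the 6 in which all MI arrays lay below all sham arrays at both times; the Psmb10 signal of wake MI replicate 3 (292) lies above all 3 wake sham arrays.

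Genes that act with the immunoproteasome in interferon-γ responses and antigen presentation moved in both directions or did not pass. Of 11 genes of MHC class I presentation tested, 0 rose and 2 fell over both times, beside 8.57% and 13.6% of all genes. The 2 were Pdia3, a chaperone of peptide loading (log2 -0.37, adjusted p 0.00628 with limma), and Tapbpl, a peptide editor (-0.29, adjusted p 0.0484). Tap1 did not pass (0.15, adjusted p 0.548), and nor did B2m, the light chain of MHC class I (-0.08). Of 14 interferon-γ response genes, 4 rose and 1 fell over both times, beside 8.57% and 13.6% of all genes, and 4 rose and 0 fell in wake hearts, beside 7.81% and 10.6%. The chemokine gene Cxcl10 rose by 0.64 over both times and by 1.05 in wake hearts, where its signals were 14.9, 40.3 and 34.9 after MI and 7.54, 1.62 and 7.90 after sham surgery, low values in both groups. Cxcl9 (0.58), Jak2 (0.42) and Irf8 (0.37) also rose, Gbp2 fell (-0.59), and Irf1, a direct activator of Psmb9, did not pass (-0.02, adjusted p 0.918). Gene lists used here other than the proteasome genes were drawn up with earlier results of these data known.

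Leukocytes and macrophages carry much immunoproteasome. Of 13 leukocyte markers tested, Cd53 rose and Cd48 and Arhgdib fell over both times, while 8.57% of all genes rose and 13.6% fell. The summed signal of the leukocyte markers was 1382 to 1637 in wake MI, 1249 to 1975 in wake sham, 1669 to 1815 in sleep MI hearts, and 1479 to 1707 in sleep sham hearts. The 9 macrophage markers tested included 0 that rose and 1 that fell over both times, and 2 that fell in wake hearts: Lyz2 (-1.03) and Adgre1 (-0.84). Of all genes 13.6% fell over both times and 10.6% in wake hearts. The macrophage sum was 3397 to 3999 in wake MI against 4366 to 7087 in wake sham hearts, and 3974 to 4431 in sleep MI against 4102 to 4902 in sleep sham hearts. None of the 10 lymphocyte markers on the arrays passed the level filter, and their sum was 45.9 to 72.2. The macrophage sum and Psmb9 were therefore both lower in wake MI than in wake sham hearts. Lyz2 was the largest part of that sum, with mean signals of 1099 in wake MI, 2306 in wake sham and 1572 in sleep sham hearts. Among the macrophage markers only Cd163 (135 against 125) and Mrc1 (301 against 277) had higher means in wake MI than in wake sham hearts. In sleep hearts the macrophage sums of MI and sham arrays overlapped, while those of Psmb9 did not. The part of these cells in the fall of Psmb9 was not tested.

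In the constitutive 20S core 2 of 14 genes were called over both times (14.3%, against 22.2% of all genes). Both were lower, and the median was -0.06. Psma4, an α-ring subunit, had wake signals of 773, 681 and 568 after MI and 932, 891 and 951 after sham surgery, without overlap. Its sleep signals were 748, 766 and 700.4 after MI and 815, 705 and 771 after sham surgery, which overlap. Psma4 fell 1.37-fold in wake hearts (log2 -0.46, SE 0.11, adjusted p 0.0127 with limma) and 1.19-fold over both times (-0.25, adjusted p 0.0345), against -0.05 in sleep hearts. The wake call was kept without each of the 12 arrays, but adjusted p was 0.268 once the beta-actin ratio was in the fit. The call over both times was lost without any 1 of wake MI 2 or 3, wake sham 1 or 3, sleep MI 1 or 3 and sleep sham 1 or 3 (adjusted p 0.0551 to 0.0812), and kept in 11 of 13 alternatives.

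Psmb1 (β6), a non-catalytic subunit, had wake signals of 999.9, 979 and 855 after MI and 1121, 1097 and 1095 after sham surgery, and sleep signals of 988, 998 and 956 after MI and 1090.0, 1112 and 1104 after sham surgery. Every MI array lay below every sham array at both times. The fall over both times was 1.14-fold (log2 -0.20, SE 0.06, adjusted p 0.0347 with limma). It was lost without any 1 array other than wake MI 1 and 2 (adjusted p 0.0523 to 0.0742), with the beta-actin covariate (0.329), and with the mean of its 3 probe sets, and was kept in 8 of 13 alternatives. That mean gives equal weight to the 2 dim probe sets, with mean signals of 29.9 and 20.7 against 1033 for the one used. The other 12 core genes did not pass, at log2 differences from -0.21 (Psma7) to 0.09 (Psma6) over both times.

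The 19S regulatory particle had 2 of 17 genes called over both times (11.8%, against 22.2% of all genes), 1 in each direction. Its median log2 difference was 0.0011. The 6 base ATPases, the motor of unfolding, had 0 calls at either time. Among the lid genes, Psmd7 encodes the partner of the deubiquitinase Psmd14. It had wake signals of 276, 277 and 159 after MI and 314, 440.1 and 351 after sham surgery, and sleep signals of 287, 297 and 251 after MI and 271, 348 and 351 after sham surgery. The wake groups did not overlap, the sleep groups did, and wake MI replicate 3 was far below the rest. Psmd7 fell 1.55-fold in wake hearts (log2 -0.63, SE 0.19, adjusted p 0.0332 with limma) and 1.33-fold over both times (-0.41, adjusted p 0.0396). The wake call was lost without wake MI 3 (adjusted p 0.103), wake sham 2 or wake sham 3, and the log2 value with the beta-actin covariate was -0.11 (adjusted p 0.775), and both calls were lost with the mean of its probe sets as well (-0.11 in wake hearts). The call over both times was lost without any 1 of wake MI 3, wake sham 2 or 3, any sleep MI array, and sleep sham 2 or 3 (adjusted p 0.0545 to 0.0896). Of 13 alternatives, 8 kept the wake call and 9 the call over both times.

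Psmd3, a lid scaffold, had wake signals of 442, 418 and 416 after MI and 347, 320.4 and 315 after sham surgery, and sleep signals of 349, 331 and 369 after MI and 349.7, 351 and 344 after sham surgery. The wake MI arrays were all higher than the wake sham arrays, and also than all 3 sleep MI arrays. In wake hearts Psmd3 rose 1.29-fold (log2 0.36, SE 0.09, adjusted p 0.0141 with limma), against 0.0031 in sleep hearts. The call was lost without wake sham replicate 3 (adjusted p 0.0577), with the compared groups fitted alone (0.0550) and with the beta-actin covariate (0.154).

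Psmd11, a lid subunit whose level limits proteasome assembly in stem cells, had wake signals of 1015, 1109 and 909 after MI and 808, 998 and 761 after sham surgery, and sleep signals of 922, 1082 and 1099 after MI and 926, 817 and 826 after sham surgery. The groups overlapped at both times, and the 2 effects were alike in size (0.24 and 0.27 on the log2 scale). Over both times Psmd11 rose 1.19-fold (log2 0.25, SE 0.09, adjusted p 0.0467 with limma). The call was kept without wake MI 3, wake sham 2 or sleep MI 1, and lost without any other 1 array (adjusted p 0.0503 to 0.114), with the beta-actin covariate (0.164), and with the mean of its probe sets (log2 0.11, adjusted p 0.279). It was kept in 8 of 13 alternatives. The ATPase gene Psmc4 had the largest SD of the 45 genes on the log2 scale in both sleep groups, with signals of 631, 568 and 864 in wake MI, 489, 533 and 496 in wake sham, 696, 521 and 371 in sleep MI hearts, and 460, 681 and 723 in sleep sham hearts. It was higher in every wake MI array than in every wake sham array but did not pass (0.41, adjusted p 0.199).

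Among the 11 activators, inhibitors and chaperones tested, 4 were called over both times, 1 higher and 3 lower, and 4 in wake hearts. Both counts are 36.4% of the class, beside 22.2% of all genes over both times and 18.4% in wake hearts. Psme4 encodes PA200, an activator of acetylated histone and peptide breakdown. It had wake signals of 2093, 2180 and 2047 after MI and 1640, 1486 and 1232 after sham surgery, and sleep signals of 1580, 1485 and 1838 after MI and 1595, 1592 and 1402 after sham surgery. The wake groups were far apart and the sleep groups overlapped. Psme4 rose 1.45-fold in wake hearts (log2 0.54, SE 0.12, adjusted p 0.00655 with limma) and 1.25-fold over both times (0.32, adjusted p 0.0143), calls kept without each of the 12 arrays. With the beta-actin covariate the wake value was 0.43 (adjusted p 0.150), and with the mean of its 3 probe sets 0.13 (adjusted p 0.454). The call over both times was lost in the same alternatives, at 0.25 (adjusted p 0.169) and 0.10 (adjusted p 0.401).

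Psme1 and Psme2, the subunits of the interferon-inducible cap PA28, did not pass. Psme1 had wake signals of 1403, 1253 and 1043 after MI and 1384, 1278 and 1308 after sham surgery, and sleep signals of 1259, 1283 and 1099 after MI and 1252, 1323 and 1319 after sham surgery. Its difference over both times was -0.10 with an interval from -0.27 to 0.06. The probe set of Psme2 also carries the symbol Psme2b and so falls outside the rule. It had wake signals of 459, 483 and 539 after MI and 596, 574 and 594 after sham surgery, and sleep signals of 608, 593 and 539 after MI and 459, 647 and 622 after sham surgery. Its wake MI arrays were all below its wake sham arrays, at -0.25 (adjusted p 0.185 in a limma fit of single probe sets), and its sleep arrays overlapped.

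The 4 chaperones of the 20S core were all lower after MI at both times on average, with a median of -0.32 over both times. Of these 4 genes 2 were called over both times (50%, against 22.2% of all genes). Psmg1 and Psmg2 (PAC1 and PAC2) form the pair that builds the α ring, and Psmg3 and Psmg4 form a second pair that acts beside them. Psmg2 had wake signals of 216, 248 and 192 after MI and 316, 304 and 300.1 after sham surgery, and sleep signals of 220.2, 222 and 237 after MI and 298, 305 and 289 after sham surgery. Every MI array lay well below every sham array at both times. Psmg2 fell 1.34-fold over both times (log2 -0.42, SE 0.07, adjusted p 0.00152 with limma) and 1.38-fold in wake hearts (-0.47, SE 0.10, adjusted p 0.00779), and the sleep value was -0.37 (adjusted p 0.0746). The call over both times was kept in every alternative and without each array. The wake call was lost with the beta-actin covariate (adjusted p 0.147), and in sleep hearts Psmg2 was called without wake MI replicate 3.

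Psmg1 had wake signals of 201, 173 and 163 after MI and 239, 238 and 253 after sham surgery, and sleep signals of 198, 199.6 and 223 after MI and 239, 221 and 257 after sham surgery. The wake groups did not overlap, and the sleep groups overlapped by 1 array on each side. Psmg1 fell 1.23-fold over both times (log2 -0.30, SE 0.07, adjusted p 0.0114 with limma) and 1.33-fold in wake hearts (-0.41, adjusted p 0.0163). The wake call was lost without wake MI 2 or wake sham 3 (adjusted p 0.0514 and 0.0618), and both calls with the beta-actin covariate (0.0932 over both times, 0.161 in wake hearts). Psmg3 and Psmg4 did not pass at either time. Their log2 differences were -0.17 and -0.04 in wake hearts and -0.48 and -0.31 in sleep hearts. In sleep hearts every MI array lay below every sham array for both, as in 15.3% of all genes.

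Of the 3 chaperones of the 19S base, Psmd10 (gankyrin) was called. It had wake signals of 70.3, 53.7 and 49.6 after MI and 99.0, 95.5 and 77.7 after sham surgery, and sleep signals of 64.7, 84.8 and 59.1 after MI and 70.3, 82.4 and 82.2 after sham surgery. The wake groups did not overlap and the sleep groups did. Psmd10 fell 1.45-fold in wake hearts (log2 -0.54, SE 0.15, adjusted p 0.0228 with limma) and 1.27-fold over both times (-0.34, adjusted p 0.0308). The wake call was lost without wake MI 2 or 3 or wake sham 1 or 2 (adjusted p 0.0641 to 0.0869) and with the beta-actin covariate (0.415). The call over both times was lost without any 1 of those 4, sleep MI 1 or 3, or sleep sham 2 or 3 (adjusted p 0.0572 to 0.0743), and kept in 9 of 13 alternatives. Psmd5, a base chaperone, was lower in every MI array at both times but did not pass (-0.15, adjusted p 0.147). Psme3ip1, which is no proteasome gene, was also called over both times (-0.28, adjusted p 0.0373), a call lost in 6 of 13 alternatives and without 7 of the 12 arrays.

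**Figure D3:**
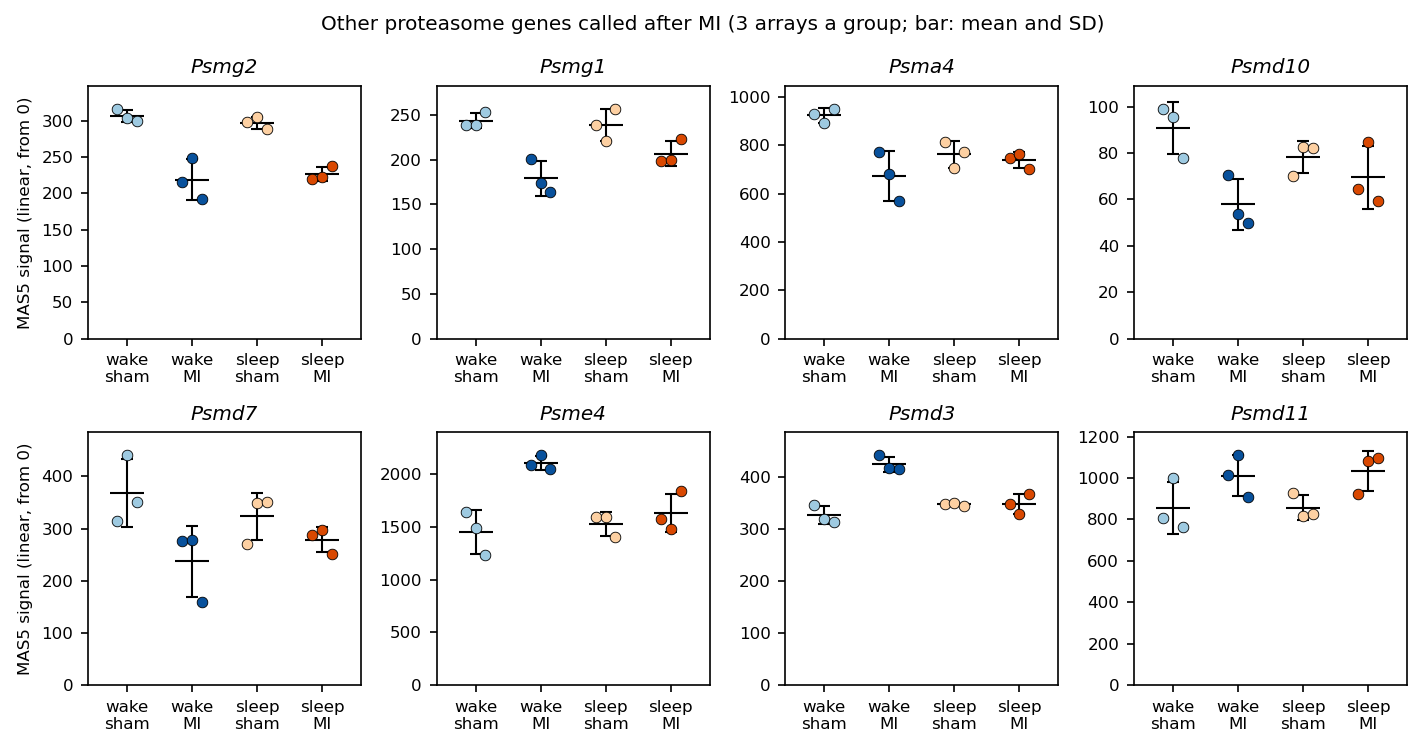
MAS5 signal on a linear axis from 0 for 8 of the called genes outside the immunoproteasome, with 1 point per array and the mean and SD of 3 arrays per group. Psmg2 has all MI arrays below all sham arrays at both times, while Psmg1, Psma4, Psmd10, Psmd7, Psme4 and Psmd3 have separate groups in wake hearts and overlapping groups in sleep hearts.

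No proteasome gene was called between the times of day. Between wake and sleep MI hearts 0 of 45 were called with limma, against 0.074% of all genes. An unadjusted p below 0.05 was found for 2 of the 45 and for 540 of the 8109 genes. The median was 0.01, and Psmd3, Psmd6 and Psme4 were higher in all wake MI arrays than in all sleep MI arrays (6.47% of all genes were). Between wake and sleep sham hearts 0 of 45 were called, against 1.52% of all genes, and 2 had an unadjusted p below 0.05: Psma4 (0.27, adjusted p 0.290) and Psma5 (-0.27, adjusted p 0.349). Of the 8109 genes, 1091 had an unadjusted p below 0.05. In that comparison 8 genes were higher in all wake arrays (11.9% of all genes) and 3 lower (8.18%). Psmb9 and Psma4 were among the 8 and Psma5 among the 3. Wake MI and wake sham hearts, and sleep MI and sleep sham hearts, serve in both kinds of comparison, so the MI and time effects of a gene share arrays.

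The spread of the proteasome genes between mice differed between the groups, and the spread of all genes was not taken beside it. The median SD of a proteasome gene over 3 arrays was 0.15 on the log2 scale in wake MI, against 0.085 in wake sham, 0.083 in sleep MI hearts, and 0.10 in sleep sham hearts. The median deviation from the gene means was -0.12 on wake MI replicate 3 and between -0.06 and 0.09 on the other 11 arrays. Not all genes were low there: Psmc2, Psmc4 and Psma6 had their highest level of the 12 arrays, and Psmb8, Psmb9 and Psmb10 were the highest of the wake MI arrays. Without that array 7 genes were called over both times and 7 in wake hearts, 6 of them shared with the full set in each case. Of all genes, 21.3% and 15.4% were then called. Psmb10 joined both lists, and Psma4, Psmb1, Psmd10 and Psmd7 left the first.

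**Figure D4:**
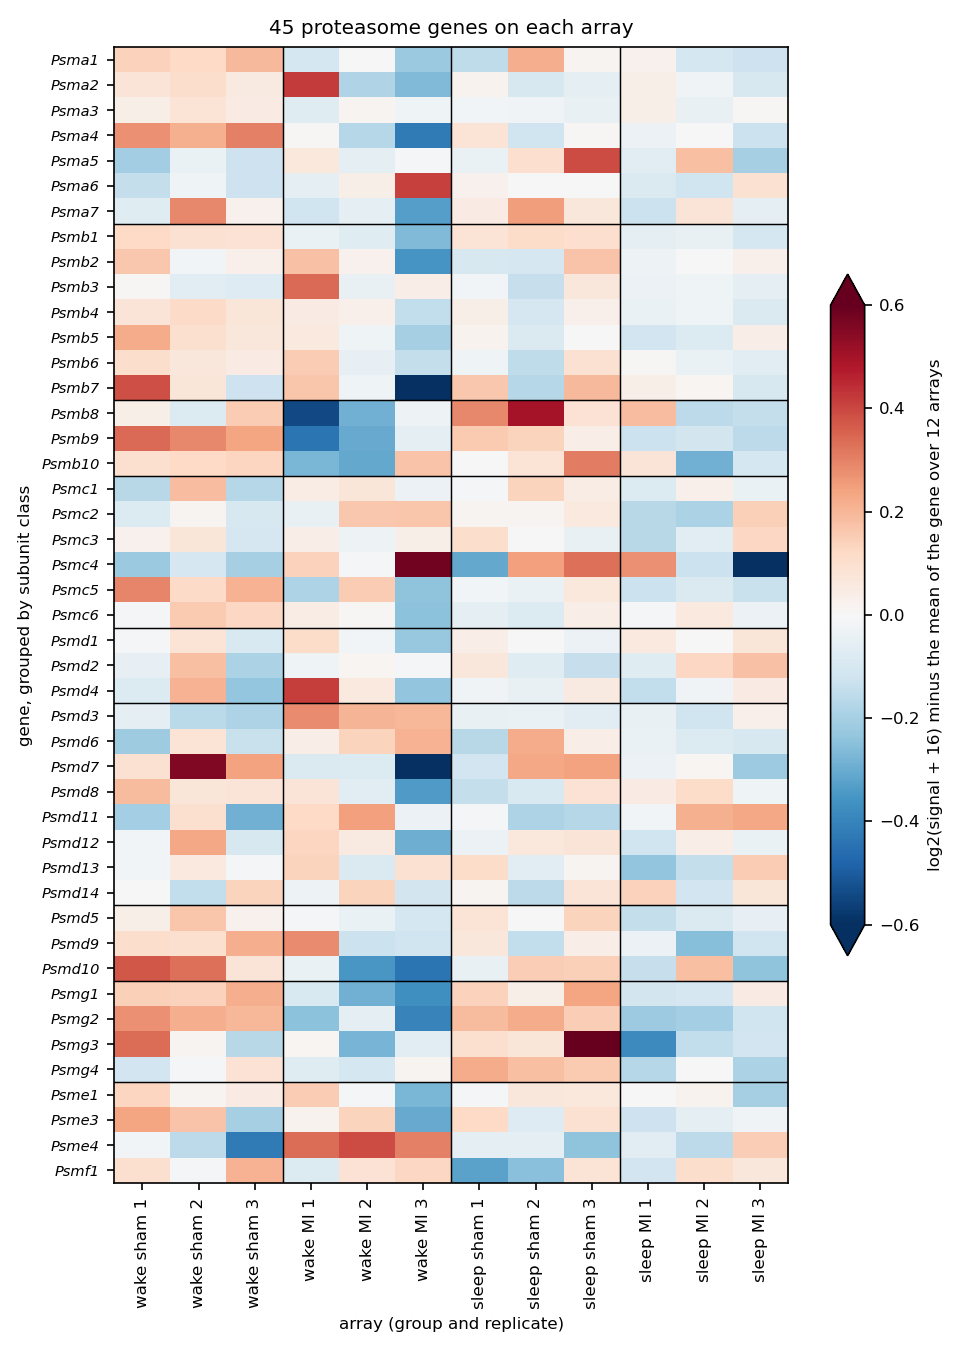
Level of each of the 45 proteasome genes on each of the 12 arrays, as log2(signal + 16) minus the gene's mean over the arrays (colour, from -0.6 to 0.6, with values beyond that range at its end colours). Wake MI replicate 3 is the column with the most dark blue cells and holds the lowest value of 21 genes, while its Psmb8 to Psmb10 cells are near or above the mean.

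Several genes had probe sets that did not move together. Of 18 proteasome genes with at least 2 probe sets above the filter, the probe sets differed in sign for 14 over both times, 13 in wake and 7 in sleep hearts. The count takes the sign of any difference, also of those close to 0 that did not pass. Some of the probe sets were dim, as for Psmb1 (mean signals of 29.9 and 20.7, against 1033 for the one used). Others were bright, as for Psmb3 (630, at -0.24 over both times, against 0.07 for the one used, and neither passed). The 2 probe sets of Psmg2 both fell in wake hearts (-0.47 and -0.76, adjusted p 0.00988 and 0.0105 in the limma fit of single probe sets). Psme4 had 1 probe set that rose (0.54) and 2 that did not pass, at 0.13 and -0.28. Psmf1, encoding the 20S-binding protein PI31, did not pass with the probe set used (0.06 over both times), while the dimmest of its 3 probe sets above the filter fell by 0.53 (adjusted p 0.00633). The second probe set of Psmd7 was at 0.31 in wake hearts, opposite to the one used (-0.63), but with a mean signal of 19.8 it lay close to the filter. Probe sets of a gene can read different transcript ends or forms, which the files do not tell apart.

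**Figure D5:**
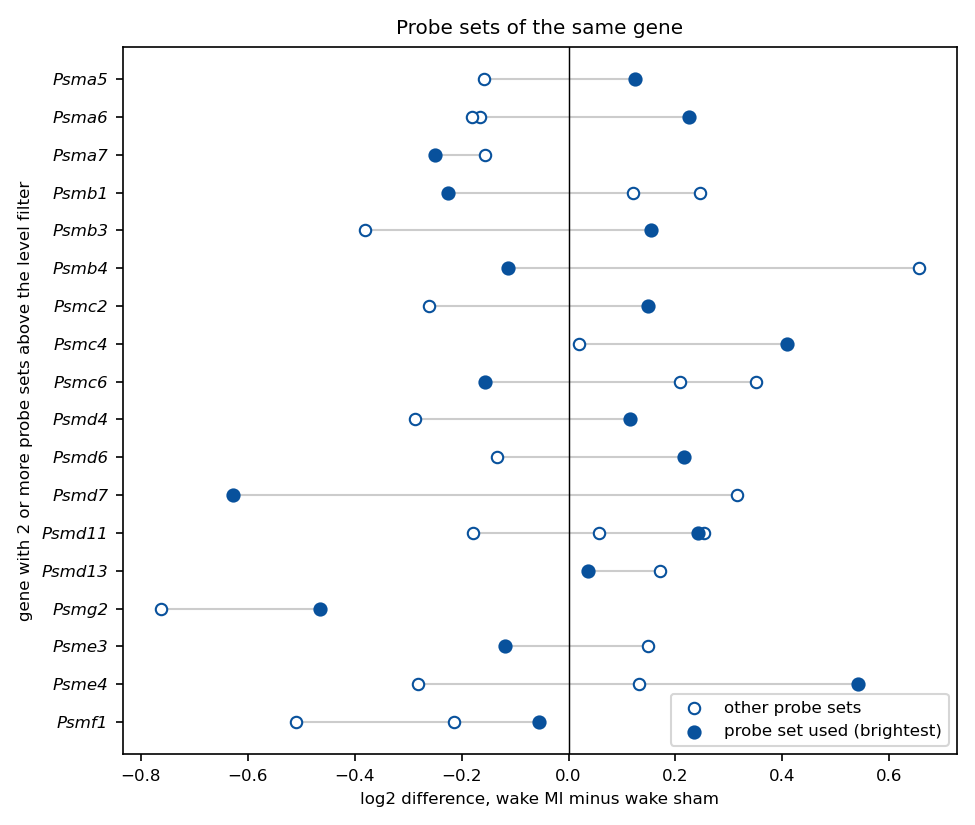
Log2 difference between wake MI and wake sham hearts for every probe set above the level filter, in the 18 proteasome genes that have at least 2. Filled points are the probe set used, open points the others; the points lie on both sides of 0 for 13 genes, and Psmg2 has both points below -0.4.

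In the wider ubiquitin-proteasome pathway calls went in both directions. Of 16 proteasome-associated factors tested, 2 rose and 2 fell over both times, beside 8.57% and 13.6% of all genes, with a median of -0.07. Zfand5, which stimulates substrate breakdown by the 26S proteasome in wasting muscle, rose 1.39-fold over both times (log2 0.47, adjusted p 0.00172 with limma), with wake signals of 1775, 1587 and 1762 after MI and 1176, 1369 and 1087 after sham surgery. Its sleep signals were 1825, 1694 and 1419 after MI and 1072, 1263 and 1265 after sham surgery, so MI and sham arrays did not overlap at either time. Ublcp1, a phosphatase of nuclear proteasomes, fell (-0.49, adjusted p 0.00165), as did Tmub1 (-0.36), and the thioredoxin-like proteasome partner Txnl1 rose (0.23). The assembly factor Pomp (-0.10, adjusted p 0.418) and the small lid subunit Sem1 (-0.02, adjusted p 0.883) did not pass.

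Of 14 genes of p97, the segregase that pulls substrates toward the proteasome, and its cofactors, 2 rose and 2 fell over both times, beside the same shares of all genes. Vcp, p97 itself, rose (0.21, adjusted p 0.0475 with limma), as did the membrane tether Ubxn4 (0.27). Derl2, a channel factor of endoplasmic reticulum degradation, fell (-0.33, adjusted p 0.00698), as did the glycan-removing enzyme Ngly1 (-0.28, adjusted p 0.00887). Of 18 autophagy and lysosome genes 0 rose and 1 fell over both times, beside 8.57% and 13.6% of all genes. The 1 was Atg5 (-0.36 over both times, -0.52 in wake hearts). The 6 genes of ubiquitin and its activating enzymes were on no probe set of their own and were not analysed here.

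Of 7 transcription factor genes of the proteasome tested, 1 rose and 1 fell over both times, beside 8.57% and 13.6% of all genes. Nfe2l1, the factor that restores proteasome genes when the proteasome is inhibited, did not pass (-0.02, adjusted p 0.838), nor did the oxidative stress factor Nfe2l2 (-0.02, adjusted p 0.940). Nfya, a subunit of the factor that binds CCAAT boxes, had wake signals of 17.9, 28.0 and 21.0 after MI and 68.2, 64.1 and 68.2 after sham surgery. It fell by 1.12 on the log2 scale in wake hearts (adjusted p 0.000665 with limma) and by 0.67 over both times. Its wake MI signals lay close to the level filter of 17.3. The other subunit genes of that factor, Nfyb and Nfyc, did not pass. Their mean signals were 60.1 and 335 in wake MI, against 52.8 and 323 in wake sham hearts. Stat3 rose (0.46 over both times, 0.67 in wake hearts). No gene of these transcription factor, p97, autophagy, associated factor, MHC class I and interferon-γ lists passed the limma test in sleep hearts.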

How the data were processed

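Heart RNA of 12 mice was hybridised to 12 single-colour arrays, 3 mice for each of 4 groups, separate mice per the labels. The deposited files hold a linear intensity for every probe set, made by the authors with MAS5 per the submitters' processing notes. Not given in the sources used here are its version, settings and detection calls, and any batch or scan date. Of 22690 probe sets, 64 were controls, and 20380 carried 1 gene symbol, 691 several and 1555 none in the array annotation, and only the first kind was named. The brightest probe set stood for each gene, and 8109 of 12393 genes passed the 40th percentile of the mean.

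The authors' deposited intensity was transformed as log2(signal + 16), so folds refer to signal + 16 and understate changes of low genes. Comparisons used limma 3.58.1 (R 4.3.3), with 1 mean per group over all 12 arrays (8 residual degrees of freedom), trended variances, two-sided tests and Benjamini-Hochberg adjustment over the 8109 genes in each of 6 comparisons. Called genes had an adjusted p below 0.05. With 3 arrays a group, the smallest two-sided p of an exact permutation test is 0.1. The fit was tested on simulated data. Values in every array are given for the catalytic and PA28 subunits and the called genes, up to 6 per direction and comparison. For other lists, counts and up to 4 called genes are given. Members and lists were chosen with earlier results of these data known. Promoter windows are from RefSeq (GRCm38.p6). Figures were drawn with matplotlib 3.10.9 in Python 3.11.15.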

Additional observations from a re-analysis of the deposited data

How the results depend on the processing

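Over both times, 10 proteasome genes were called, and the count was 6 without the level filter, 2 with the beta-actin ratio in the fit (Psmb9 and Psmg2) and 6 without both arrays of the highest ratio, an alternative chosen after seeing the data. Of all genes, 12.5% were called without the level filter and 18.7% without both arrays. The proteasome count ranged from 4 to 8 with 1 array left out, with 4 without sleep MI 3, 5 without wake sham 1 or 3 or sleep sham 2 or 3, and 6 without sleep MI 1 or 2 or sleep sham 1. Over these left-out arrays 16.3% to 22.3% of all genes were called. In wake hearts the count was 8, and 1 with the beta-actin ratio (Psmb9), 5 without wake sham 3, and 5 to 9 over the left-out arrays, beside 10.4% to 18.7% of all genes. With the ratio in the fit 8.3% of all genes were called over both times and 3.34% in wake hearts. The wake groups did not overlap in this ratio. Calls lost with it, here and for single genes, therefore cannot be assigned to the ratio rather than to MI. In sleep hearts the count ranged from 0 to 1 with 1 array left out, and the 1 was Psmg2 without wake MI 3. All other alternatives to these counts (pseudocounts of 1 and 64, the 60th percentile, quantile normalization, median centring, averaged probe sets, the highest linear signal, no trend, the compared groups alone) stayed within 1.5 times of them, and the 3 comparisons without a call stayed at 0. Averaged probe sets took in all those of a gene, also any below the level filter, with equal weight. The cause of the changes was not tested. Same-numbered arrays share only a number: over 18 pairs the correlation of their deviations ran from -0.175 to 0.254. With the replicate number as a block, 9 genes were called over both times, 8 in wake and 0 in sleep hearts, beside 20.9%, 17.6% and 2.22% of all genes. The median over both times ran from -0.11 to -0.03 over all settings. With 3 arrays a group and a median SE of 0.14 for 1 time of day, the number of arrays limits the precision.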
